A study of Homo sapiens with 12 samples.

Results

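The genes described here are 10 genes of the cardiac sarcomere (MYH6, MYH7, MYL3, MYBPC3, TNNT2, TNNI3, TNNC1, ACTC1, ACTN2 and TTN), read in RNA sequencing libraries of AU565, a human breast carcinoma cell line that carries extra copies of ERBB2. They were chosen by symbol among the 16020 rows of the deposited count table because replicates 1 and 2 of monolayer and large spheroid differed from replicate 3, so that difference is described without a test. All 10 had a row and passed the filter on low counts, but 6 (MYH6, MYH7, MYL3, ACTN2, TNNI3 and ACTC1) did so only through replicates 1 and 2 of monolayer and large spheroid. The study grew AU565 cells, labelled WT, in 4 formats with 3 libraries each: monolayer, small liquid overlay spheroids, large liquid overlay spheroids and capsules. Every library of every format, the monolayer ones too, shared the same exposure in the labels, namely trastuzumab (an antibody against the ERBB2 receptor), then 5% matrigel (a basement membrane extract) and 96 h of incubation. The cells came from RPMI medium with fetal bovine serum. The labels name 1 cell line and do not state that the replicates were grown apart, so the p-values take in no more than the library-to-library spread, and that can be technical.

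The sarcomere is the contractile unit of striated muscle, in which thick filaments of myosin slide along thin filaments of actin. Calcium binding to the troponin complex lets myosin reach actin, alpha-actinin anchors the thin filaments at the Z-disc, and titin spans from the Z-disc to the middle of the thick filament. MYH6 and MYH7 encode the alpha and beta heavy chains of cardiac myosin, which are hallmarks of heart muscle rather than of epithelial cells, and MYH7, MYL3 and TNNC1 are also used in slow skeletal fibres.

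MYH6 (chromosome 14, 23381987 to 23408273) and MYH7 (chromosome 14, 23412740 to 23435660) are neighbours 4466 bases apart, and the other genes lie on other chromosomes or far from each other. Positions are whole genes in RefSeq, build GRCh38.p14. MYL3 lies on chromosome 3 (46857872 to 46882182), TNNC1 on chromosome 3 (52451100 to 52454041), MYBPC3 on chromosome 11 (47331406 to 47352702) and ACTC1 on chromosome 15 (34790230 to 34795549). TNNT2 lies on chromosome 1 (201359014 to 201377680), ACTN2 on chromosome 1 (236686499 to 236764631), TNNI3 on chromosome 19 (55151767 to 55157732) and TTN on chromosome 2 (178525989 to 178807423).

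Because most of these genes were high and low in the same libraries, the 250 bases before the annotated start were read for 8 of them from RefSeq (GRCh38.p14), in 11 windows. The sequences for MYH6, ACTC1, TNNT2 and MYBPC3 are shown, the windows among these genes with matches to 2 of the 5 motifs searched. Both strands were searched for TATAAA, a core promoter element. They were also searched for AGATAA, which factors of the GATA4 family bind, for CATTCC, which TEAD factors bind, for the CArG box of serum response factor and for the MEF2 site. Each runs 5′ to 3′ on the gene's strand, which is the minus strand for all 4, and capitals mark the matches.
MYH6, chr14:23408274-23408523: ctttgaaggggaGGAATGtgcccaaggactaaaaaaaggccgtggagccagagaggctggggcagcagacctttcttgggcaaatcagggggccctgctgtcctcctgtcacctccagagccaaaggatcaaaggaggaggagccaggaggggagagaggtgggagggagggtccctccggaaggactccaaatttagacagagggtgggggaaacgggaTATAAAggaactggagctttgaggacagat
ACTC1, chr15:34795550-34795799: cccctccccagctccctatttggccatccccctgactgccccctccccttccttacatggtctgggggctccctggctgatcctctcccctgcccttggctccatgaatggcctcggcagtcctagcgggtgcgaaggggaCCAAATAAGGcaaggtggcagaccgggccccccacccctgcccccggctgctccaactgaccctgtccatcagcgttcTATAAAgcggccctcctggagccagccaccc
TNNT2, chr1:201377681-201377930: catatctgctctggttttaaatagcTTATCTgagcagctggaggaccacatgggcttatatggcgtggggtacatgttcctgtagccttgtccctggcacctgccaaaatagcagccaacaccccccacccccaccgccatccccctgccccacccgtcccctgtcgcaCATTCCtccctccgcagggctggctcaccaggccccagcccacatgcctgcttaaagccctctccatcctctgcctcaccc
MYBPC3, chr11:47352703-47352952: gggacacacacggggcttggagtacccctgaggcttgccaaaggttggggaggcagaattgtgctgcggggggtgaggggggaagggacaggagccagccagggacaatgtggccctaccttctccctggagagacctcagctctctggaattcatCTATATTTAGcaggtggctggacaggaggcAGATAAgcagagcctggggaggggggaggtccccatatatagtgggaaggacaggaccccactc

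MYH6 held TATAAA from base -30 and CATTCC on the opposite strand from base -238, counted back from the start. ACTC1 held TATAAA from base -31 and a CArG box from base -109. TNNT2 held AGATAA on the opposite strand from base -225 and CATTCC from base -81, and MYBPC3 held a MEF2 site from base -94 and AGATAA from base -64. The CArG box and MEF2 matches read as such on both strands, and no matches of different motifs overlapped in these 4 windows. TATAAA stood in a window of 2 of the 8 genes (10.7% of 35116 promoters of the same length), AGATAA in 3 (9.17%) and CATTCC in 3 (11.9%). The CArG box stood in 1 gene (1.16% of promoters) and the MEF2 site in 2 (2.80%), the other being TTN. Some genes had several windows, so these counts and shares are not on the same footing, and a match is a description of the letters only.

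The libraries held from 13971346 to 24729250 counts. The 12 luminal genes fixed as a check of AU565 identity, ERBB2 and the keratins KRT8 and KRT18 among them, all had rows, and their summed level ran from 13350 to 21843 CPM (the unit of level here: counts scaled to the library total). The monolayer sums were 14707, 14648 and 15751 CPM in replicates 1, 2 and 3, so that the replicates differed little in these markers. Replicates were compared over the 11699 to 11701 rows of highest mean count. All pairs of replicates differed by more than sampling noise, with a chi-square per gene from 2.80 to 12.6 outside capsule 1, which stood apart from its partners at 39.1 and 34.6. Over these rows replicate 3 also lay further from replicates 1 and 2 than they did from each other. The values were 7.66 and 7.44 against 3.87 in monolayer and 12.6 and 8.18 against 3.75 in large spheroid. The letters UP stand in the titles of the monolayer and large spheroid libraries and of no others, without an explanation in the labels. In bulk RNA, fewer cells of a type and less RNA per cell cannot be told apart.

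In monolayer and large spheroid, most of these genes were read in replicates 1 and 2 and hardly at all in replicate 3. The summed level of the 9 genes other than TTN was 224.5 and 221.1 CPM in monolayer 1 and 2 against 2.23 in monolayer 3. It was 75.2 and 58.6 CPM in large spheroid 1 and 2 against 5.14 in large spheroid 3. Small spheroid libraries held 6.17, 5.18 and 7.66 CPM, and capsule libraries 3.11, 5.21 and 4.74. Only the first 2 monolayer and the first 2 large spheroid libraries thus lay above 10 CPM, and the remaining 8 lay between 2.23 and 7.66.

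**Figure D1:**
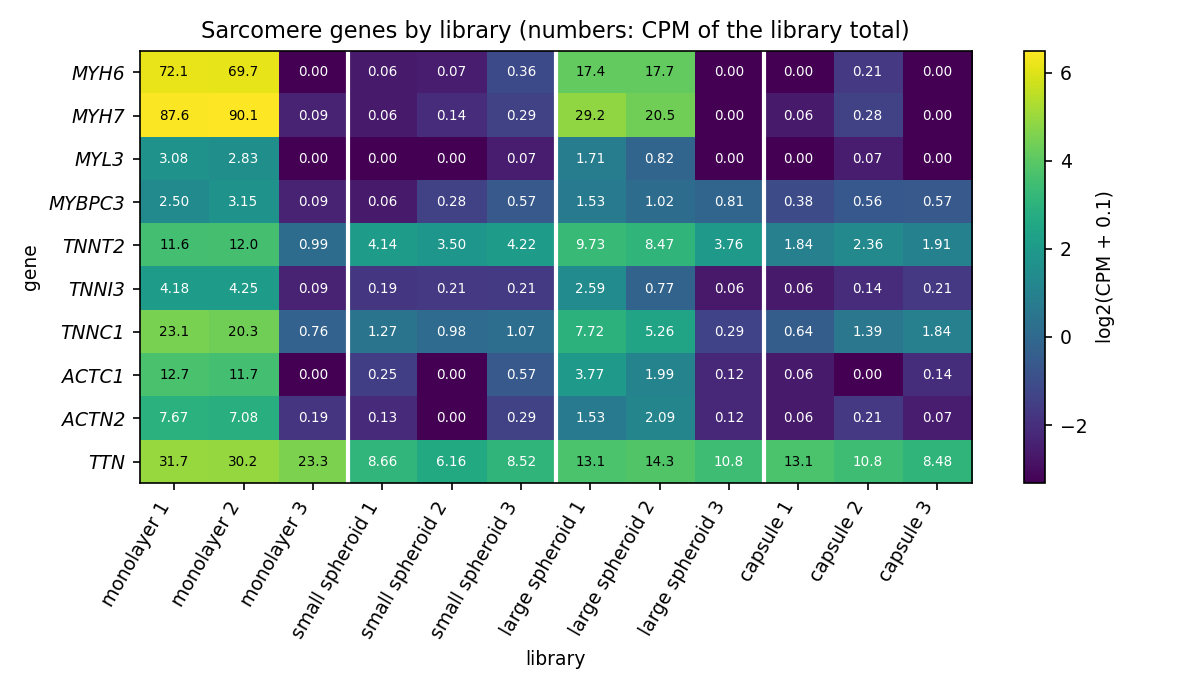
Level of each sarcomere gene (rows) in each of the 12 libraries (columns); the printed numbers are CPM of the library total, the colour is log2(CPM + 0.1) and white lines part the culture formats. The bright columns are replicates 1 and 2 of monolayer and of large spheroid, with MYH6 at 72.1 and 69.7 CPM in the first pair and 17.4 and 17.7 in the second, whereas TTN was read in all 12.

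The heavy chains of the thick filament were high in these 4 libraries and at or near 0 in replicate 3. MYH6, the fast alpha heavy chain of heart muscle, stood at 72.1, 69.7 and 0 CPM in monolayer 1, 2 and 3 and at 17.4, 17.7 and 0 CPM in large spheroid. MYH7, the slower beta heavy chain, stood at 87.6, 90.1 and 0.0947 CPM in monolayer and at 29.2, 20.5 and 0 CPM in large spheroid. No value of either gene lay in between. A count of 0 allows up to 0.142 CPM in monolayer 3 and 0.173 CPM in large spheroid 3, taking 3 counts as the limit. Against that limit the lower of replicates 1 and 2 was at least 490-fold higher for MYH6 in monolayer, at least 100-fold for MYH6 in large spheroid and at least 118-fold for MYH7 in large spheroid. MYH7 had 2 counts in monolayer 3, so that monolayer 1 exceeded it by a ratio of 925 (95% Clopper-Pearson interval 256 to 7648). Intervals and limits here cover counting error only.

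The essential light chain and the myosin binding protein were high in the same libraries in monolayer. MYL3, the ventricular and slow-muscle essential light chain, stood at 3.08, 2.83 and 0 CPM in monolayer and at 1.71, 0.816 and 0 CPM in large spheroid. MYBPC3, the cardiac protein that binds and regulates the myosin filament, stood at 2.498, 3.15 and 0.0947 CPM in monolayer and at 1.53, 1.02 and 0.809 CPM in large spheroid. MYL3 was unread in replicate 3 of both formats, while the MYBPC3 values of large spheroid lay close together. MYL3 was at least 19.9-fold higher in monolayer and at least 4.71-fold higher in large spheroid. MYBPC3 had 2 counts in monolayer 3, giving a ratio of 26.4 (95% interval 6.87 to 225), and its fold in large spheroid was 1.26.

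The troponins were also highest in replicates 1 and 2, with unlike levels in replicate 3. TNNC1, the calcium-binding subunit, stood at 23.1, 20.3 and 0.758 CPM in monolayer and at 7.72, 5.26 and 0.289 CPM in large spheroid. TNNT2, the cardiac tropomyosin-binding subunit and a blood marker of heart injury, stood at 11.6, 12.01 and 0.994 CPM in monolayer and at 9.73, 8.47 and 3.76 CPM in large spheroid. TNNI3, the cardiac inhibitory subunit, stood at 4.18, 4.25 and 0.0947 CPM in monolayer and at 2.59, 0.765 and 0.0578 CPM in large spheroid. In all 3 genes replicate 3 was the lowest of its format, but TNNT2 was still read at 3.76 CPM in large spheroid 3. The lower of replicates 1 and 2 exceeded replicate 3 by 26.8-fold in monolayer and 18.2-fold in large spheroid for TNNC1, and by 11.6-fold and 2.25-fold for TNNT2. TNNI3, with 2 counts in monolayer 3 and 1 in large spheroid 3, had ratios of 44.2 (95% interval 11.8 to 372) and 13.2 (2.04 to 557).

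ACTC1, the alpha-actin of cardiac thin filaments, stood at 12.7, 11.7 and 0 CPM in monolayer and at 3.77, 1.99 and 0.116 CPM in large spheroid. ACTN2, the muscle alpha-actinin of the Z-disc, stood at 7.67, 7.08 and 0.189 CPM in monolayer and at 1.53, 2.09 and 0.116 CPM in large spheroid. Both genes were high in the same 4 libraries and near 0 in replicate 3. ACTC1 was at least 82.3-fold higher in monolayer, and its ratio in large spheroid was 17.2 (95% interval 4.46 to 147, with 2 counts in replicate 3). For ACTN2 the fold was 37.4 in monolayer and the ratio 13.3 in large spheroid (95% interval 3.32 to 115).

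TTN, the giant elastic protein of the sarcomere, had the smallest gap of the 10 in both formats. It stood at 31.7, 30.2 and 23.3 CPM in monolayer, at 13.1, 14.3 and 10.8 CPM in large spheroid, at 8.66, 6.16 and 8.52 CPM in small spheroid and at 13.1, 10.8 and 8.48 CPM in capsule. Replicate 3 was the lowest in monolayer and in large spheroid, but by only 1.30-fold and 1.22-fold. The antisense gene TTN-AS1, which overlaps TTN, was read at 0.472 to 1.84 CPM in the 12 libraries, and without a stated strand setting reads of the 2 cannot be told apart. PTH1R, which overlaps MYL3, reached 0.764 CPM at most.

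**Figure D2:**
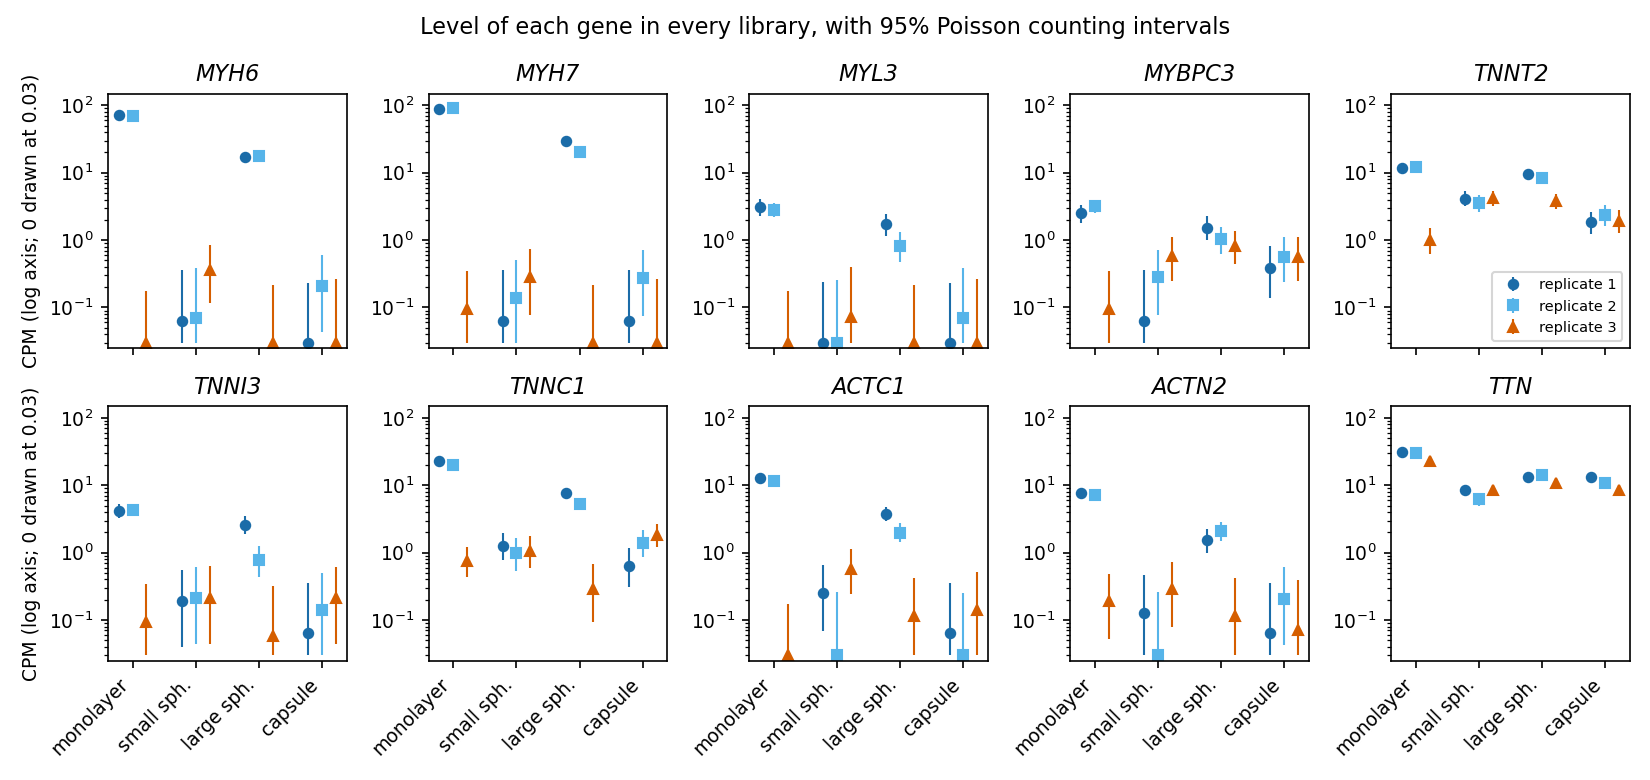
CPM on a log axis (0 drawn at 0.03) for each of the 10 genes, with 3 points per culture format marking replicates 1, 2 and 3 and bars giving 95% Poisson counting intervals. In monolayer, replicate 3 lies far below replicates 1 and 2 in every panel except TTN, and in small spheroid replicate 3 is the lowest in no panel.

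Replicates 1 and 2 both lay above replicate 3 in all 10 genes in monolayer and in large spheroid, which 38.7% and 41.5% of all rows also did. At least 4-fold above, with replicate 3 raised to 3 counts where it had fewer, were 9 of the 10 genes in monolayer (0.406% of all rows, 65 rows) and 7 in large spheroid (0.137%, 22 rows). The exceptions were TTN in both formats, and TNNT2 and MYBPC3 in large spheroid. The median fold of the 10 was 28.1 in monolayer and 6.77 in large spheroid, against 0.965 and 0.966 over all rows. Only 8 rows of the table passed in both formats (0.0499%), and 7 of them were these sarcomere genes. The remaining one was MYH2, a fast skeletal muscle myosin heavy chain. Since this contrast chose the genes, these shares describe them and test nothing.

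**Figure D3:**
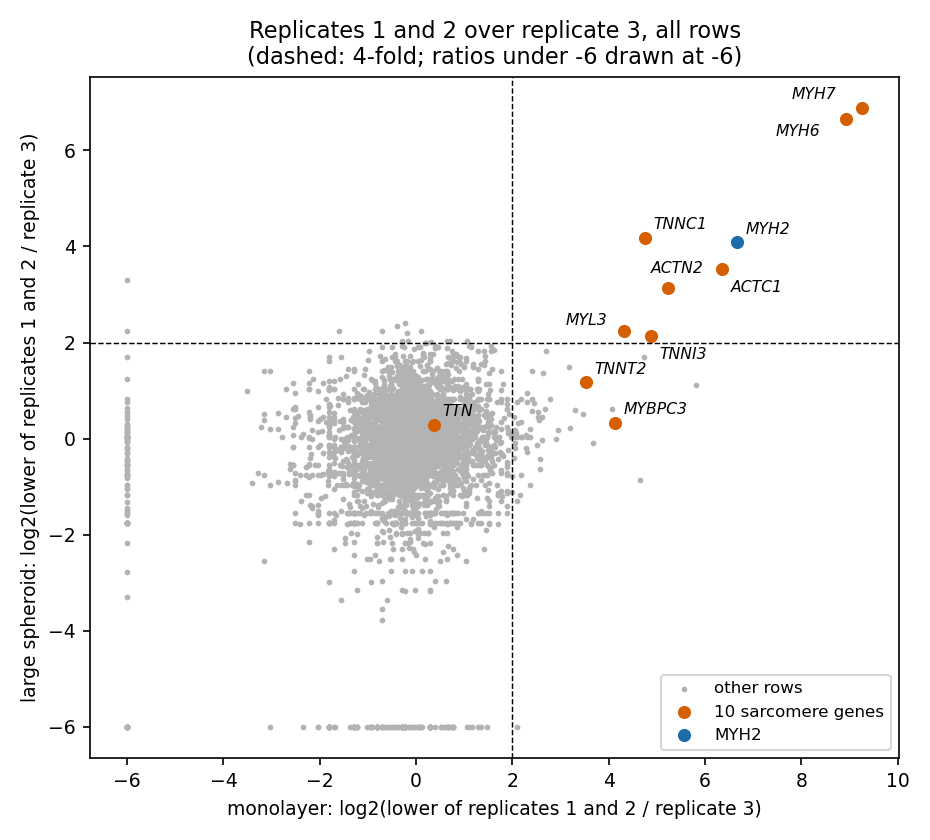
Each point is a row of the count table, placed by the log2 ratio of the lower of replicates 1 and 2 over replicate 3 in monolayer (x axis) and in large spheroid (y axis), with ratios under -6 drawn at -6 and dashed lines at 4-fold. The upper right field holds 7 sarcomere genes (orange) and MYH2 (blue), and TTN lies within the cloud of other rows.

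Replicates 1 and 2 of monolayer were alike in these genes, and those of large spheroid less so. The ratio of monolayer 1 over monolayer 2 ran from 0.792 (MYBPC3) to 1.13 (TNNC1), and all 10 counting intervals included 1 (those of 19.8% of all rows excluded it). For large spheroid 1 over large spheroid 2, 5 of the 10 intervals excluded 1, all with replicate 1 higher, as did 10.2% of all rows. These were TNNI3 at 3.39 (95% interval 1.85 to 6.56), MYL3 at 2.09 (1.10 to 4.13), ACTC1 at 1.90 (1.25 to 2.90), TNNC1 at 1.47 (1.13 to 1.92) and MYH7 at 1.42 (1.24 to 1.63). MYH6 at 0.982, TTN at 0.920 and ACTN2 at 0.733 lay on the other side of 1 with intervals that included it. These intervals hold counting error alone, and this pair of libraries differed by more than that over the rows of highest mean count.

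Between formats, the pooled counts of monolayer 1 and 2 over those of large spheroid 1 and 2 gave ratios above 1 for all 10 genes, with all intervals above 1 (39.1% of all rows had the same). Actin, actinin and myosin heavy chain had the highest ratios: ACTC1 4.30, MYH6 4.03, ACTN2 3.99 and MYH7 3.63. The ratio was 3.35 for TNNC1, 2.61 for TNNI3, 2.38 for MYL3, 2.29 for MYBPC3 and 2.24 for TTN. TNNT2 had the lowest, 1.31. These libraries were chosen with the values known, so the ratios compare libraries and not conditions.

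**Figure D4:**
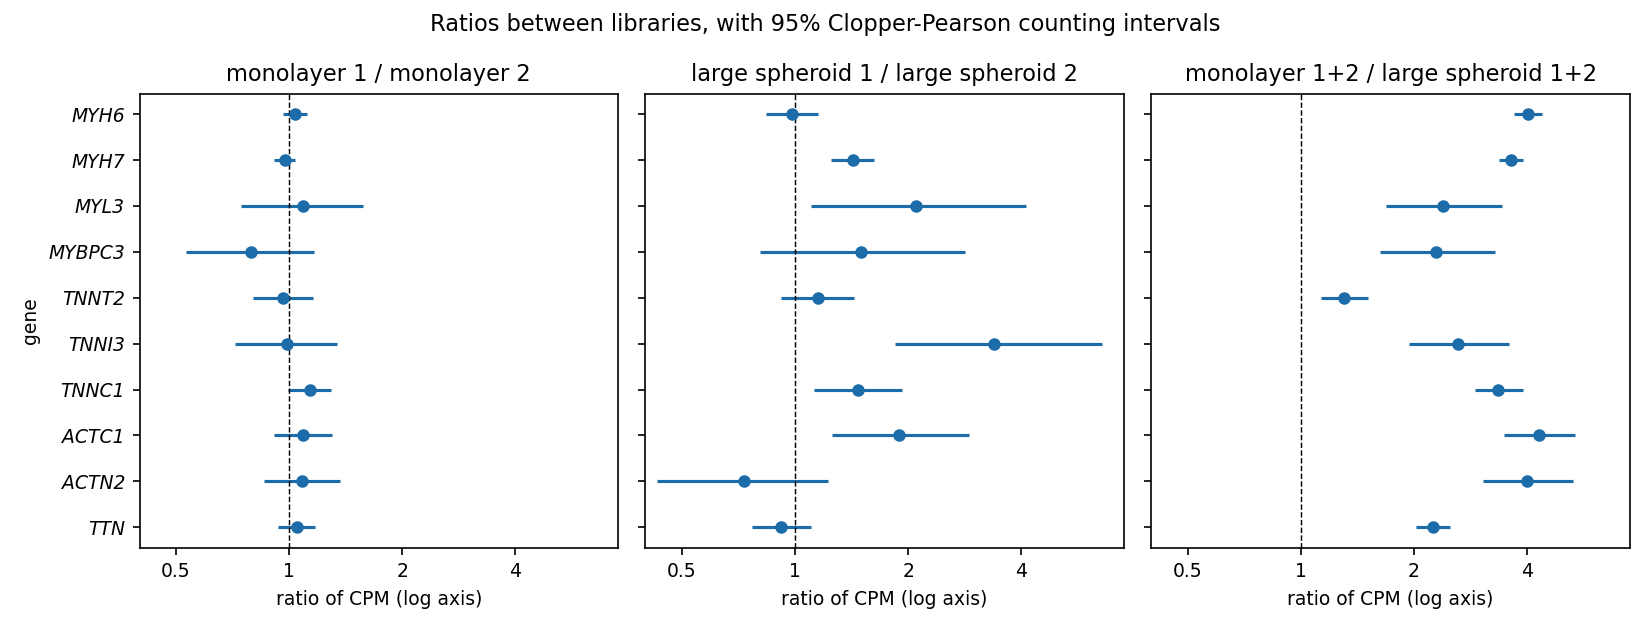
Ratios of CPM on a log axis for each of the 10 genes, with 95% Clopper-Pearson counting intervals, for monolayer 1 over 2 (left), large spheroid 1 over 2 (middle) and the pooled replicates 1 and 2 of monolayer over those of large spheroid (right). The left points lie at 1 within their intervals, 5 of the middle intervals lie above 1, and the right points run from 1.31 for TNNT2 to 4.30 for ACTC1.

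The balance of the cardiac myosin isoforms was close to even. MYH6 made up 45.1% of the MYH6 and MYH7 counts in monolayer 1 (95% Clopper-Pearson interval 43.3% to 47.0%) and 43.6% in monolayer 2 (42.1% to 45.2%). The share was 37.3% in large spheroid 1 (34.0% to 40.8%) and 46.3% in large spheroid 2 (42.7% to 49.97%). The intervals of the 2 large spheroid libraries did not overlap. Of the 50-base windows of the MYH6 transcript, 14.8% also occur in MYH7, and 14.5% of those of MYH7 occur in MYH6, so the counting could split or drop some reads of this pair. MYH2 shared no such window with either of them, and of the windows of MYH2 13.4% also occur in its skeletal neighbour MYH1. ACTC1 shared none with ACTA1, ACTA2, ACTG2 or ACTB.

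Per transcript length, the order of the genes changed. In monolayer TNNC1 had the highest mean level per kilobase, 20.6 ± 17.0 RPKM (CPM per kilobase of transcript, SD, n = 3), followed by MYH7 at 9.74 ± 8.42, MYH6 at 7.96 ± 6.89 and TNNT2 at 6.16 ± 4.69 RPKM. TNNI3 stood at 3.38 ± 2.83, ACTC1 at 2.20 ± 1.91, MYL3 at 1.95 ± 1.69 and ACTN2 at 1.02 ± 0.855 RPKM. MYBPC3 at 0.453 ± 0.381 and TTN at 0.280 ± 0.0441 RPKM were lowest. The SDs of all but TTN were large beside the means, with replicate 3 far below the others in these genes together. They therefore do not measure how far neighbours in this order differ. The same order stood in monolayer 1 and in monolayer 2, with TNNC1 at 32.3 and 28.5, MYH7 at 14.4 and 14.8 and MYH6 at 12.1 and 11.7 RPKM. In monolayer 3 the order was another, with TNNC1 at 1.06, TNNT2 at 0.748 and TTN at 0.230 RPKM.

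In small spheroid and capsule, all of the genes but TNNT2, TNNC1 and TTN stayed at or below 0.573 CPM in every library, the highest being MYBPC3 and ACTC1 in small spheroid 3. No gene had replicates 1 and 2 both 4-fold above replicate 3 (0.00624% and 0.0125% of all rows did). Only TNNT2, TNNC1 and TTN could have passed. The other genes had at most 8 counts in each of these libraries, too few with replicate 3 raised to at least 3 counts. MYH6 stood at 0.0637, 0.07004 and 0.358 CPM in small spheroid and at 0, 0.208 and 0 CPM in capsule. MYH7 stood at 0.0637, 0.140 and 0.286 CPM in small spheroid and at 0.0635, 0.278 and 0 CPM in capsule. TNNC1 was read in each of these libraries, at 1.27, 0.981 and 1.07 CPM in small spheroid and 0.635, 1.39 and 1.84 CPM in capsule, and so was TNNT2, at 4.14, 3.502 and 4.22 and at 1.84, 2.36 and 1.91 CPM. The order of the replicates was not that of monolayer, but many of these values rest on few counts. In small spheroid 8 of the 10 genes were highest in replicate 3 (28.6% of the 15994 rows read in this format were) and 2 in replicate 1. Among the 8, MYH6 had 1, 1 and 5 counts. TNNI3 had 3 counts in each library, so its order follows the library totals alone. In capsule no single replicate was highest throughout. The order there also rests on few counts for many genes, such as 0, 3 and 0 for MYH6 and 0, 1 and 0 for MYL3. Of the 8 skeletal muscle rows, 6 were highest in small spheroid 3 and TNNT1 and TNNI2 in small spheroid 2. MYH2 stood at 0.446, 0.7004 and 1.86 CPM, MYH1 at 0.191, 0.630 and 1.79 CPM and ACTA1, the skeletal alpha-actin, at 0.7002, 0.630 and 3.15 CPM.

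The culture formats were compared across all genes with edgeR's quasi-likelihood test, with Benjamini-Hochberg adjustment and a call at adjusted p below 0.05. The values of monolayer and large spheroid chose the 10 genes, so for every comparison with either format the counts of calls and the log2 fold changes describe these libraries, with no p given and nothing read from them. Small spheroid, large spheroid and capsule were each set against the same 3 monolayer libraries, so these comparisons share them. Small spheroid was called lower than monolayer in 9 of the 10 genes (35.3% of 15175 tested genes were), and the median log2 fold change was -4.14, against 0.0087 over all tested genes. MYH7 stood at 59.3 ± 51.3 CPM in monolayer (SD, n = 3) and at 0.163 ± 0.113 CPM in small spheroid, a log2 fold change of -8.32 ± 1.83 (SE). MYH6 stood at -7.99 on the log2 scale and TTN, with its more even replicates, at -1.71 ± 0.17. TNNT2 was the gene not called, at -0.89 ± 0.53. With replicates 1 and 2 of monolayer and large spheroid left out, monolayer is 1 library and 4 of the genes pass the filter. TNNT2, TNNC1 and MYBPC3 then stood above monolayer 3, at 2.10, 0.67 and 1.69 on the log2 scale, MYBPC3 having 2 counts there. TTN went the other way, with 23.3 CPM in monolayer 3 against 8.66, 6.16 and 8.52 CPM in small spheroid.

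Capsule was called lower than monolayer in all 10 genes (31.5% of tested genes were), with a median log2 fold change of -4.78 against 0.040 over all tested genes. MYH7 stood at 0.114 ± 0.145 CPM in capsule, a log2 fold change of -8.88 ± 1.90. The 3 capsule libraries together held 3 counts of MYH6, and the ratio of monolayer over capsule was 694 (95% interval 237 to 3368). Together they held 3 counts of ACTC1 too, a ratio of 119 (40.5 to 579). TNNT2 stood at 8.19 ± 6.23 CPM in monolayer and 2.04 ± 0.282 CPM in capsule, and TTN at 28.4 ± 4.47 and 10.8 ± 2.30 CPM. Without replicates 1 and 2 of monolayer and large spheroid, TNNT2, TNNC1 and MYBPC3 stood above monolayer 3, at 1.04, 0.76 and 2.31 on the log2 scale. MYBPC3 had 2 counts in monolayer 3. TTN went the other way, with 23.3 CPM in monolayer 3 against 13.1, 10.8 and 8.48 CPM in capsule.

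Large spheroid was called lower than monolayer in ACTN2 and TTN (28.4% of tested genes were), and the median log2 fold change of the 10 was -1.48 against -0.0020 over all tested genes. TTN stood at 12.7 ± 1.80 CPM in large spheroid, a log2 fold change of -1.11 ± 0.16. ACTN2 stood at 4.98 ± 4.16 CPM in monolayer and 1.25 ± 1.02 CPM in large spheroid, at -1.92 ± 0.75. The heavy chains were not called, with MYH6 at -1.96 ± 0.93 and MYH7 at -1.79 ± 0.94. The count turned on single libraries: without monolayer 3 all 10 were called, without replicate 3 of both formats 9, without large spheroid 1 there were 4, and without monolayer 1, monolayer 2 or large spheroid 3 TTN alone. The ACTN2 call was lost in each of those last 3 cases, without large spheroid 1, and with DESeq2. Over all tested genes, leaving out 1 library of these formats gave 7715 to 8235 calls in either direction. Without replicates 1 and 2 of both formats each has 1 library, and TNNT2 and MYBPC3 stood higher in large spheroid, at 1.97 and 3.05 on the log2 scale. MYBPC3 had 2 counts in monolayer 3. TNNC1 and TTN went the other way, at 0.289 and 10.8 CPM in large spheroid 3 against 0.758 and 23.3 CPM in monolayer 3.

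Large spheroid was called higher than small spheroid in 4 of the 10 genes (32.9% of tested genes were), with a median log2 fold change of 2.502 against -0.0047 over all tested genes. These were MYH7 at a log2 fold change of 6.53 ± 2.05, MYH6 at 6.03 ± 2.02, MYL3 at 4.72 ± 1.88 and TTN at 0.60 ± 0.18. The count was 2 without small spheroid 1 or small spheroid 2, and 8 without large spheroid 3. Over all tested genes, leaving out 1 library of these formats gave 9296 to 9637 calls in either direction. Without replicates 1 and 2 of monolayer and large spheroid, large spheroid is 1 library: TNNC1 stood at -1.97 on the log2 scale and TNNT2 at -0.13. MYBPC3 and TTN went the other way, at 0.809 and 10.8 CPM in large spheroid 3, above each small spheroid library. The MYL3 call was lost when any of 5 of the 6 libraries was left out. Small spheroid held 1 count of MYL3, and the ratio of large over small spheroid was 36.7 (95% interval 6.26 to 1483).

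Capsule and small spheroid took no part in choosing the genes. However, 6 of the 10 (MYH6, MYH7, MYL3, ACTN2, TNNI3 and ACTC1) were tested only through replicates 1 and 2 of monolayer and large spheroid. Between them none of the 10 genes passed with edgeR, at the adjusted or at an unadjusted p below 0.05, and DESeq2 also called none (52.0% of tested genes passed, in either direction). The median log2 fold change of the 10 was -0.46. TTN was nearest, at 0.37 ± 0.18 (adjusted p = 0.0923), and it passed without capsule 3 (0.51, adjusted p = 0.0257). TNNT2 was not called, at -1.06 ± 0.63. Its capsule values of 1.84, 2.36 and 1.91 CPM lay below its small spheroid values of 4.14, 3.502 and 4.22 CPM. The spread of each gene was taken from all 12 libraries, the split ones of monolayer and large spheroid included, so a call could be missed. With replicate 3 of those formats left out, 1 of the 10 genes was called, lower in capsule. For those 6 genes the test could tell little, and the lack of a call shows nothing about them. They had 0 to 8 counts in each small spheroid and capsule library. The SE of their log2 fold changes ran from 1.79 for TNNI3 to 5.69 for MYH7 and 5.87 for MYH6.

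Other genes of muscle and of the nonmuscle cytoskeleton were taken from 8 lists, of whose 106 genes 71 had a row. Of these, 6 had replicates 1 and 2 of monolayer both at least 4-fold above replicate 3, 1 did so in large spheroid, and MYH2 alone did so in both. MYH2 stood at 15.5, 14.5 and 0 CPM in monolayer and at 5.25, 2.96 and 0 CPM in large spheroid, at least 102-fold and at least 17.1-fold above replicate 3. The same libraries were high in it as in MYH6 and MYH7. The other 5, chosen after their values were seen, were low in all libraries. ACTA1 stood at 4.18, 3.80 and 0.0947 CPM in monolayer, with a ratio of 40.1 (95% interval 10.8 to 336). DES, the muscle intermediate filament desmin, stood at 4.59, 3.52 and 0.568 CPM in monolayer and at 2.00, 1.63 and 0.636 CPM in large spheroid. LDB3, a Z-disc protein, stood at 2.67, 2.47 and 0.379 CPM in monolayer and at 1.12, 0.612 and 0.116 CPM in large spheroid. The muscle glycogen phosphorylase PYGM stood at 1.80, 2.30 and 0.331 CPM in monolayer, and the muscle creatine kinase CKM at 0.755, 0.849 and 0 CPM.

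Several muscle genes showed smaller gaps of the same sign. The thin filament tropomyosin TPM1 stood at 214.8, 218.6 and 156.7 CPM in monolayer, and TPM2 at 8.83, 8.61 and 3.93 CPM. ANKRD1, a stretch-responsive nuclear and sarcomere protein chosen after its values were seen, stood at 10.7, 8.49 and 3.03 CPM in monolayer and at 4.95, 6.43 and 4.51 CPM in large spheroid. MEF2C, a muscle transcription factor, stood at 5.63, 5.70 and 2.13 CPM in monolayer and at 2.59, 4.49 and 1.85 CPM in large spheroid. Replicate 3 was lowest in each of these, and none reached 4-fold.

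Other genes named for muscle were even across replicates. ATP2A2 (the calcium pump SERCA2) stood at 567.4, 557.7 and 533.5 CPM in monolayer, NEBL (nebulette) at 115.1, 115.1 and 113.7 CPM, and MYLK3 (the cardiac myosin light chain kinase) at 153.0, 150.2 and 154.8 CPM. None of the 4 other thick and thin filament genes, the 10 calcium handling and channel genes, the 5 genes for cardiac transcription factors, the 8 smooth muscle genes or the 12 genes for nonmuscle myosin, actin and actinin passed 4-fold in either format. Genes with few counts could not pass, since replicate 3 was raised to at least 3 counts. MYH9, the main nonmuscle myosin heavy chain, stood at 764.0, 766.4 and 858.5 CPM in monolayer, highest in replicate 3. The atrial and ventricular light chains MYL4, MYL7 and MYL2, the natriuretic peptides NPPA and NPPB, the factors GATA4 and TBX5 and phospholamban (PLN) had no row in the table used here.

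**Figure D5:**
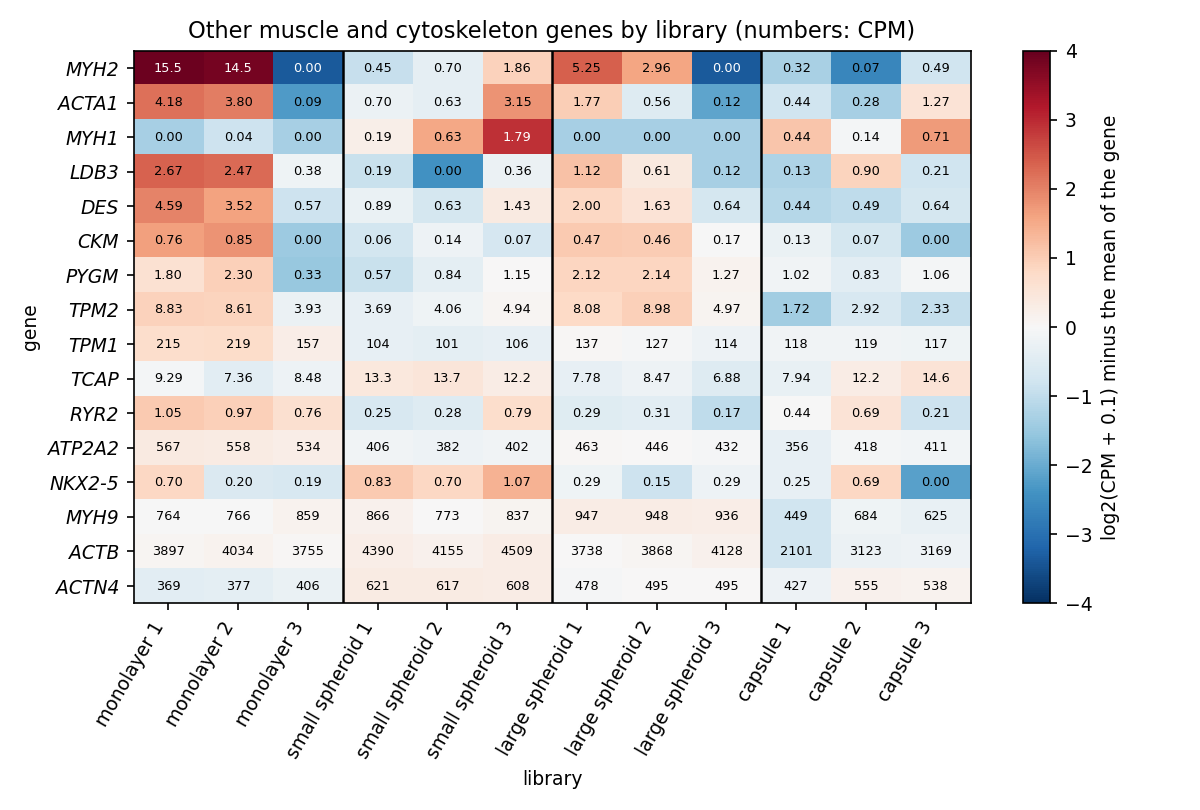
Other muscle and cytoskeleton genes (rows) in the 12 libraries (columns), with CPM printed and colour giving log2(CPM + 0.1) minus the mean of the gene. MYH2, ACTA1, LDB3, DES and CKM are red in monolayer 1 and 2, MYH1 is highest in small spheroid 3 at 1.79 CPM, and ATP2A2, MYH9, ACTB and ACTN4 change little between the monolayer replicates.

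By culture format these lists moved in mixed directions under edgeR's test. Of 14 tested Z-disc, M-band and costamere genes, 3 rose and 9 fell in small spheroid against monolayer, and 2 rose and 12 fell in capsule (37.0% and 34.5% of all tested genes rose, 35.3% and 31.5% fell). PDLIM5, a Z-disc adaptor, fell by 1.09 on the log2 scale in small spheroid. Of the 12 nonmuscle myosin, actin and actinin genes, 8 rose and 2 fell in small spheroid. ACTN4, the nonmuscle counterpart of ACTN2, rose by 0.83 ± 0.09 there (adjusted p = 2.41e-07). Of the 7 tested skeletal muscle genes, 2 rose and 2 fell in small spheroid, and MYH2 was among those that fell (-3.17 ± 1.06). No p is given for MYH2, since the values of monolayer and large spheroid singled it out. In monolayer 3 it stood at 0 CPM, below its small spheroid values of 0.446, 0.7004 and 1.86 CPM.

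Markers of other cell types were read beside the sarcomere genes. None of the rows of the fibroblast, endothelial, melanocyte, liver, neural or blood lists passed 4-fold in monolayer or large spheroid, and none of the 8 pluripotent cell markers had a row in the table used here. In the order named, 3, 3, 1, 3, 5 and 6 genes of these lists had no row either. Rows with few counts could not pass, since replicate 3 was raised to at least 3 counts: KDR, with 6, 15 and 0 counts in monolayer, came to 2.45-fold. The 7 fibroblast and mesenchymal rows summed to 56.4, 54.0 and 28.3 CPM in monolayer and to 31.4, 42.0 and 23.1 CPM in large spheroid, against 27.7 to 30.4 CPM in small spheroid and 25.2 to 26.1 CPM in capsule. Replicate 3 lay below both others in 5 of the 7 in monolayer and in all 7 in large spheroid (38.7% and 41.5% of all rows did). Some of these rest on few counts, such as PDGFRB with 5, 2 and 0 in large spheroid. The list did not move as one: POSTN stood at 27.6, 30.1 and 11.03 CPM in monolayer and at 0 in the 3 small spheroid libraries, whereas COL1A1 stood at 9.18, 8.49 and 8.52 CPM in monolayer and at 24.9, 22.1 and 24.2 CPM in small spheroid. PDGFRB was even in monolayer, at 0.523, 0.485 and 0.521 CPM, and DCN, LUM and PDGFRA had no row in the table used here. The 6 melanocyte rows summed to 79.8, 121.0 and 56.5 CPM in monolayer and to 24.9, 30.5 and 23.4 CPM in large spheroid, against 5.98 to 7.07 CPM in small spheroid and 6.73 to 7.75 CPM in capsule. Replicate 3 was lowest in both sums, in monolayer and in large spheroid. The 3 blood cell rows summed to 1.59 to 2.86 CPM in the 12 libraries and the 5 endothelial rows to 5.47 to 19.3 CPM. The part of other cells or of RNA from outside the culture in the sarcomere reads was not tested.

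Across the 12 libraries, 11695 rows outside the 10 genes with a level of at least 5 CPM in some library were ranked by Pearson's r between their log2 CPM and the mean scaled profile of the 10. The genes themselves had r from 0.717 (TTN) to 0.995 (MYL3) with that mean. The closest other rows were C3orf62 (0.907), MYH2 (0.903), NEK9 (0.859), the mitochondrially encoded COX3 (0.856), LOC102724200 (0.852) and DDX19B (0.846). CCDC88A (0.838), AHNAK2 (0.837), LACTB (0.837) and TPM2 (0.829) followed. Of these, C3orf62 spanned 4.84 to 10.0 CPM and COX3 954.7 to 1740 CPM, so a high r did not mean a gap like that of MYH2. The 12 points share formats and libraries, so these values describe these libraries only.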

How the data were processed

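RNA sequencing counts of 12 libraries in 4 culture formats were used. The authors deposited whole-number read counts per Entrez gene. Reads were aligned with subread, per the file headers, and assigned with featureCounts on hg38, with limma also listed, per the submitters' processing notes. For versions, annotation, strand setting and row filter nothing was given in the sources used here. Reads of near-identical copies may be split or dropped. Rows without a symbol (164, holding 0.0705% of counts) were kept in the totals. The column of capsule replicate 1 spells the format in full and was matched by format and number.

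Counts were tested in R 4.3.3 with edgeR 4.0.16: filterByExpr (minimum count 10), TMM normalization, and quasi-likelihood F tests from a single model of the 12 libraries (a coefficient for each format), over 15175 genes and 5 comparisons, Benjamini-Hochberg adjusted within each. The SE is the log2 fold change divided by the square root of F. The script was tested on simulated data. CPM and RPKM were computed from the counts, RPKM with the longest principal transcript of GENCODE 29. Motifs and overlaps used RefSeq tables, with all 10 genes matched by symbol. Alternatives were DESeq2 1.42.0, other scalings, no filter, a replicate block and fewer libraries.

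The genes and the 17 gene lists were chosen with earlier results of these data known. The genes named are the 10, up to 5 per muscle or cytoskeleton list by level among those reaching 5 CPM, and the 10 rows most like the mean profile (log2 CPM, prior count 2). Others are said to be chosen after their values were seen.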

Additional observations from a re-analysis of the deposited data

How the results depend on the processing

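Of the 620 values of single genes under alternatives, 536 kept direction and side of the threshold, 42 gained a call, 22 lost one and 20 changed direction. With replicates 1 and 2 of monolayer and large spheroid left out, calls among the 10 genes fell to 2 in small spheroid against monolayer, 2 in capsule against monolayer and 1 in large against small spheroid, and rose to 1 in capsule against small spheroid. Genes called in large spheroid against monolayer fell to 3516 from 8669. In that setting monolayer and large spheroid have 1 library each, assumed to vary like the other formats, and 6 of the 10 genes are not tested. The log2 fold changes against monolayer were 2.10 for TNNT2, 0.67 for TNNC1 and 1.69 for MYBPC3 in small spheroid, 1.04, 0.76 and 2.31 in capsule, and 1.97 for TNNT2 and 3.05 for MYBPC3 in large spheroid. MYBPC3 had 2 counts in monolayer 3. TTN stood lower than in monolayer 3 in each of these formats, and TNNC1 did so in large spheroid. Large against small spheroid gave -0.13 for TNNT2 and -1.97 for TNNC1, while MYBPC3 and TTN stood higher in large spheroid 3.

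With replicate 3 of monolayer and large spheroid left out, the 10 genes gave 9 calls in large spheroid against monolayer, 10 in large against small spheroid and 1 in capsule against small spheroid. This setting drops the libraries of these formats in which the chosen genes were low. DESeq2 called 1 in large spheroid against monolayer, and scaling to library totals called 1 in capsule against small spheroid (TTN). For these settings and for the replicate block no share of all tested genes is given. Their counts therefore describe the 10 genes only. Leaving out 1 library at a time, the calls ran from 8 to 10 in small spheroid against monolayer, 1 to 10 in large spheroid against monolayer, 9 to 10 in capsule against monolayer, 2 to 8 in large against small spheroid and 0 to 1 in capsule against small spheroid. Over all tested genes, in the same order, they ran from 10360 to 10668, 7715 to 8235, 9285 to 10704, 9296 to 9637 and 6836 to 7870. TNNT2 in large spheroid against monolayer ran from -0.64 to 0.30 and turned without monolayer 1 (0.19), monolayer 2 (0.30) or large spheroid 3 (0.20). In capsule against small spheroid MYH7 ran from -2.13 to 0.066, MYL3 from -2.13 to 2.04 and ACTN2 from -1.05 to 0.61, each turning without small spheroid 3. MYL3 also turned without capsule 3 (0.35) or capsule 1 (0.42), and TNNC1, from -0.26 to 0.43, without capsule 3. The cause of these changes was not tested.

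Replicate numbers were not used to pair the libraries in the main fit, and a cut on correlation cannot settle whether they were paired. Of 18 same-number pairs of libraries 2 had a correlation of deviations above 0.1, over a range from -0.21 to 0.22. Both were of monolayer with large spheroid, whose same-number values were 0.0887, 0.15 and 0.22 and where each library correlated best with its own number, a hint from the data and not the design. With the replicate block, 7 of the 10 genes were called in large spheroid against monolayer (TNNT2 at 0.018) and 7 in large against small spheroid. Library totals moved the median of all genes by -0.15 in small spheroid against monolayer, 0.11 in large against small spheroid and 0.12 in capsule against small spheroid, where 62.9% of calls were then higher.

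At 10-fold in place of 4-fold, 4 of the 10 genes passed in large spheroid, and at 2-fold 5 of the related genes passed in both formats. No share of all rows is given at these folds, so the counts describe these genes only. Depth limits what can be said at 0: a gene with no counts may still stand at up to 0.142 to 0.212 CPM, by library.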
